A study of Mus musculus with 6 samples.

Results

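The machinery that copies DNA in S phase was followed through 48 listed mouse genes, listed by symbol for their role in replication. Of these, 46 were among the 14548 genes with values, and all 46 reached at least 1 FPKM (mapped fragments scaled by exon length and by the size of the library) in at least 1 library, the filter that left 10837 genes to test. *Gins2* and *Cdt1* were not analysed here. The values came from mRNA of the mouse line C2C12, whose cells are myoblasts, the dividing precursors of skeletal muscle fibres. The groups were 3 libraries of WT cells and 3 of the MSTN-KO line C11, in which CRISPR/Cas9 had been aimed at exon 3 of the myostatin gene. Both groups were grown as myoblasts in DMEM with fetal bovine serum. The strain field reads C11 for both groups, so the groups rest on the genotype. The MSTN-KO libraries all stand for 1 edited line, so a difference between the lines that has nothing to do with *Mstn* cannot be told apart from an effect of the knockout. Nothing says that the libraries came from separate cultures, so the p-values measure the spread between libraries, which may be technical.

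Replication starts with licensing in G1, when the origin recognition complex, CDC6 and CDT1 load the ring-shaped MCM helicase onto DNA, while geminin blocks a second loading later in the cycle. Kinases then recruit CDC45 and the GINS complex to make the active CMG helicase, and the clamp PCNA, the clamp loader RFC, the polymerases, the single-strand binding protein RPA, the nuclease FEN1 and DNA ligase I copy and seal the strands. Many of these genes are transcribed under E2F factors late in G1, so their RNA is widely read as a sign of cycling cells, and it declines when myoblasts leave the cycle to differentiate. In bulk RNA, fewer cells in S phase and less RNA per cell cannot be told apart.

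*Mstn* was at or under 0.0586 FPKM in every library, so its RNA could not check the labels. The FPKM values summed to between 723705 and 764524 in WT and between 856314 and 999579 in MSTN-KO, and the relative depth, read from the smallest steps in the values, ran from 0.877 to 1.11 of WT replicate 1. The absolute depth is unknown. Of 8 myoblast markers, 7 had values and each reached 1 FPKM in at least 1 library, with sums of 1273 to 1740 FPKM in WT and of 739 to 916 FPKM in MSTN-KO. These markers did not all move together. By the criterion given below, 4 were called lower (57.1%, against 8.96% of all tested genes). *Pax7* was called higher (14.3%, against 8.78%), and 2 markers, 1 of them *Myf5*, were not called. The measured endothelial markers stayed at or under 0.167 FPKM in sum. The fibroblast sums were 10.4 to 16.1 FPKM in WT and 10.9 to 18.7 in MSTN-KO. Those of adipocyte markers were 0.147 to 0.324 and 0.919 to 1.76, and those of macrophage and leukocyte markers 1.15 to 1.51 and 0.726 to 2.45. Only 3 of 6 fibroblast, 2 of 5 adipocyte and 2 of 6 macrophage and leukocyte markers had values. Of the tested ones, *Dcn* was called lower, *Fabp4* was called higher, and *Col1a1* and *Cd68* were not called. The part of any such cells in the results was not tested.

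The replication genes as a group did not move in 1 direction. With limma on log2(FPKM + 1) and a Benjamini-Hochberg adjusted p under 0.05 over all tested genes, 4 of 46 were higher in MSTN-KO and 4 were lower. Each count is 8.7% of the members, against 8.78% of all tested genes called higher and 8.96% called lower, so the shares were near the background. The median log2 fold change of the members was 0.07, beside -0.0008 over all genes, with 26 members above 0 and 20 below. The 4 that rose were *Mcm7*, *Mcm5*, *Lig1* and *Dut*, by 0.45 to 0.50 on the log2 scale. The 4 that fell were *Mcm4*, *Rfc4*, *Gmnn* and *Cdc45*, with log2 fold changes from -0.92 to -0.74. None passed the study's cutoffs when these were applied to the limma fit, an unadjusted p under 0.05 with a log2 fold change beyond 1. Of all tested genes, 3.51% passed them in either direction. The study's own list came from the iDEP software, so which of these genes it held is not given here. The libraries of the groups did not overlap for 7 members on the higher side, against 19.3% of all genes, and for 6 on the lower side, against 18.1%. Scaling every library to a sum of 1000000 FPKM moved the median of all genes to -0.26 and that of the members to -0.21. With this scaling 0 members were called higher and 7 lower, beside 350 and 2367 of all 10837 tested genes.

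**Figure D1:**
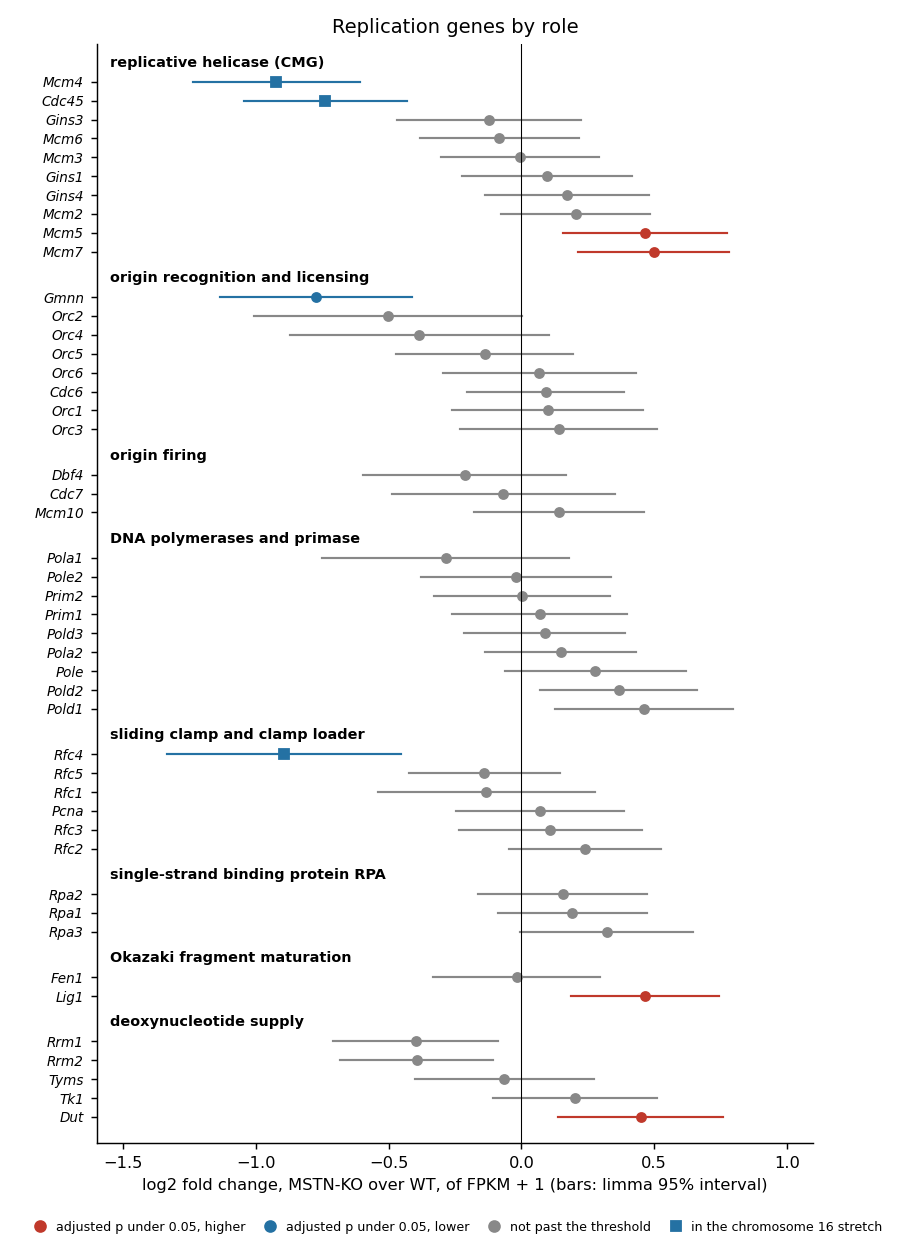
The log2 fold change of FPKM + 1, MSTN-KO over WT, for the 46 replication genes, grouped by role and ordered within each role, with limma's 95% interval. Red marks the 4 genes called higher and blue the 4 called lower, of which the 3 drawn as squares lie in 1 stretch of chromosome 16.

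Promoters of several of these genes carry the letters that E2F factors are known to bind, and the promoters of genes that rose and of genes that did not are shown for comparison. RefSeq gave a promoter (250 bases before to 50 after a gene start, GRCm38.p6) for 40 of the 48 genes. The motif TTTCGCGC or TTTGGCGC, searched on both strands, was found in 10 of these 40, against 0.929% of 27025 genes with a promoter and 1.93% of the tested genes with one. The motif CCAAT, on both strands, was in 23 (57.5%), against 41.1% of all genes and 43.5% of the tested ones. No promoter entry was used for *Gins1*, *Gins2*, *Gins4*, *Gmnn*, *Mcm4*, *Pole*, *Prim2* and *Rfc2*. The sequences below run 5′ to 3′ on the strand of the gene, with every match of both motifs in capitals for *Mcm5*, of the E2F motif for the next 6 and of CCAAT for *Cdc45*. For *Mcm5* the 250 bases before the start are printed, so a further CCAAT match just after the start is not shown. The other sequences are stretches of 30 bases, and a further E2F match of *Mcm6* lies outside its stretch. *Mcm5*, *Mcm7* and *Lig1* rose, *Cdc45* fell, and *Mcm6*, *Orc1*, *Rfc3* and *Pola1* were not called.
Mcm5 (chr8:75109259-75109508, plus strand): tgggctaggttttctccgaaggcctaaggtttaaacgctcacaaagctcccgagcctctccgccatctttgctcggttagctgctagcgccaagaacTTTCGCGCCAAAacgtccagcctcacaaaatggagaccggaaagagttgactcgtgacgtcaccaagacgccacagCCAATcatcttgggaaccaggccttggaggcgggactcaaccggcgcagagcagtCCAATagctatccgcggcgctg
Mcm7 (chr5:138171849-138171878, minus strand): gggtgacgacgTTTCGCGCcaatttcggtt
Lig1 (chr7:13278841-13278870, plus strand): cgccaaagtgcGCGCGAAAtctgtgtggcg
Mcm6 (chr1:128359797-128359826, minus strand): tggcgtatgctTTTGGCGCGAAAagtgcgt
Orc1 (chr4:108579416-108579445, plus strand): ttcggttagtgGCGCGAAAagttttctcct
Rfc3 (chr5:151651200-151651229, minus strand): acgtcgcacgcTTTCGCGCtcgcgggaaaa
Pola1 (chrX:93632275-93632304, minus strand): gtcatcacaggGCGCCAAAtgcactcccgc
Cdc45 (chr16:18811968-18811997, minus strand): gacgaaccgtgtATTGGaaacttATTGGaa

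In *Mcm5* and *Mcm6* a match on the plus strand and one on the minus strand share bases, which makes the longer run in capitals. *Cdc45* held no E2F match in this window, nor did the available promoter of *Rfc4*. Of the 9 members with a value and an E2F match, 3 were called higher and 0 lower, with a median log2 fold change of 0.10 and a range from -0.29 (*Pola1*) to 0.50 (*Mcm7*). Of the 30 with a value and no match, 1 was called higher and 2 lower, with a median of 0.07. In these sets 5 of 9 and 16 of 30 members were above 0. Over all tested genes, 8.78% were called higher and 8.96% lower. The 3 called higher with a match were *Mcm5*, *Mcm7* and *Lig1*, whose calls were lost in 8, 4 and 5 of the alternative analyses described below. Whether genes with the motif rose more often than others was not tested. A match describes the letters and is not a measured site.

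Among the helicase genes, some were called higher and some lower. MCM2 to MCM7 form the ring of the helicase in equal numbers, and CDC45 and GINS switch it on. Of the 10 measured CMG genes, *Mcm7* and *Mcm5* rose (20%, against 8.78% of all tested genes). *Mcm4* and *Cdc45* fell (20%, against 8.96%), and the other 6 were not called. Both genes that fell lie in the stretch of chromosome 16 described below, where most tested genes were called lower.

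*Mcm4* had 25.8, 25.7 and 32.5 FPKM in WT replicates 1 to 3 and 15.9, 14.4 and 12.5 FPKM in MSTN-KO replicates 1 to 3. The groups did not overlap, and every MSTN-KO library was below the lowest WT library. The means were 28.0 ± 3.88 and 14.3 ± 1.68 FPKM (SD, n = 3), a log2 fold change of -0.92 (standard error, SE, 0.14, adjusted p = 0.000934 by limma), the largest fall among the members. *Cdc45*, which joins the helicase at firing, had 26.1, 27.4 and 30.9 FPKM in WT and 15.2, 14.9 and 19.6 FPKM in MSTN-KO. Its groups did not overlap either, and its log2 fold change was -0.74 (SE 0.14, adjusted p = 0.00383 by limma). *Mcm4* and *Cdc45* were called lower in all 17 alternative analyses.

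*Mcm7* had 86.2, 86.7 and 88.2 FPKM in WT, the tightest group of any member, and 113, 114 and 146 FPKM in MSTN-KO. All MSTN-KO libraries were above WT, and replicate 3 was the highest. The log2 fold change was 0.50 (SE 0.13, adjusted p = 0.0197 by limma). *Mcm5* had 79.1, 57.6 and 65.6 FPKM in WT and 88.0, 85.9 and 105 FPKM in MSTN-KO, for a log2 fold change of 0.47 (SE 0.14, adjusted p = 0.0395 by limma). *Mcm7* shares 7.25% of its exon bases with *Ap4m1* and 1.45% with *Cops6* on the opposite strand, and neither of these was called. For *Mcm5*, WT replicate 1 came close to the MSTN-KO libraries without reaching them. Neither call held without WT replicate 2 (adjusted p = 0.0806 for *Mcm7* and 0.199 for *Mcm5*, limma) or without MSTN-KO replicate 3 (0.0542 and 0.135). *Mcm7* also missed the threshold without WT replicate 1 (0.0541), and *Mcm5* without WT replicate 3 (0.0887) or MSTN-KO replicate 1 (0.0805). In these analyses the log2 fold change of *Mcm7* was 0.49 without WT replicate 1 or 2 and 0.38 without MSTN-KO replicate 3. That of *Mcm5* was 0.36 and 0.45 without WT replicate 2 or 3, and 0.50 and 0.37 without MSTN-KO replicate 1 or 3. *Mcm2* had 65.3, 57.2 and 64.9 FPKM in WT and 66.7, 67.9 and 82.5 FPKM in MSTN-KO, for a log2 fold change of 0.20 (95% interval -0.08 to 0.48, limma adjusted p = 0.292). The remaining log2 fold changes of CMG genes ran from -0.12 (*Gins3*) to 0.17 (*Gins4*), with *Mcm3* at -0.01 and *Mcm6* at -0.08.

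Shares within the ring do not depend on how a library was scaled. *Mcm4* made up 7.27%, 7.69% and 8.65% of the summed FPKM of *Mcm2* to *Mcm7* in the WT libraries and 4.07%, 3.80% and 2.71% in the MSTN-KO libraries. *Mcm7* made up 24.3%, 25.9% and 23.5% in WT and 28.9%, 29.9% and 31.7% in MSTN-KO. Thus *Mcm4*, already the least abundant of these RNAs per length in WT, was lower still in MSTN-KO. The 6 shares sum to the whole, so a fall in 1 raises the others, and 3 libraries against 3 cannot give an exact permutation p under 0.1. The summed FPKM of the 6 genes was 355, 334 and 376 in WT and 390, 380 and 462 in MSTN-KO.

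Among the 8 tested licensing genes only *Gmnn* was called, and it was lower (12.5%, against 8.96% of all tested genes). *Gmnn* encodes geminin, the inhibitor of CDT1, and had 32.2, 39.6 and 46.5 FPKM in WT and 19.2, 21 and 27.7 FPKM in MSTN-KO. The groups did not overlap, with a log2 fold change of -0.77 (SE 0.17, adjusted p = 0.00694 by limma), and *Gmnn* was called lower in all 17 alternatives. The subunits of the origin recognition complex, which marks the origins, lay between -0.50 and 0.14. *Orc2* had the lowest of these, at 18.4, 10.1 and 12.4 FPKM in WT and 12.3, 9.71 and 6.14 FPKM in MSTN-KO. These groups overlapped (limma adjusted p = 0.157), and 29.8% of the exon bases of *Orc2* are shared with *Nif3l1* on the opposite strand. *Cdc6*, which loads the helicase, was between 11.7 and 14.5 FPKM in all 6 libraries, with a log2 fold change of 0.09. The firing genes *Cdc7* and *Dbf4*, a kinase and its activator, and *Mcm10* lay between -0.21 and 0.14, and none was called.

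None of the 9 polymerase and primase genes was called, against 8.78% of all tested genes called higher and 8.96% called lower. Their log2 fold changes ran from -0.29 to 0.46. The nearest were 2 subunits of polymerase delta, which copies the lagging strand. *Pold1*, its catalytic subunit, had 22.6, 16.8 and 15.96 FPKM in WT and 25.5, 22.6 and 28.8 FPKM in MSTN-KO (log2 fold change 0.46, limma adjusted p = 0.0571). WT replicate 1 and MSTN-KO replicate 2 had nearly the same value. *Pold2* had 55.5, 44.6 and 54.6 FPKM in WT and 64.3, 60.4 and 75.6 FPKM in MSTN-KO (log2 fold change 0.37, limma adjusted p = 0.0806), without overlap. *Pola1*, the catalytic subunit of the polymerase that starts each strand, had the lowest log2 fold change of these genes at -0.29, with a 95% interval from -0.75 to 0.18.

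Of the 6 clamp and clamp loader genes, *Rfc4* fell (16.7%, against 8.96% of all tested genes) and the other 5 were not called. *Rfc4*, a small subunit of the loader, had 16.9, 17.9 and 25.3 FPKM in WT and 7.12, 12.3 and 11.9 FPKM in MSTN-KO. No MSTN-KO library reached the lowest WT value, and the log2 fold change was -0.89 (SE 0.20, adjusted p = 0.00954 by limma). Its share of the summed FPKM of *Rfc2* to *Rfc5* was 11.8%, 12.8% and 16.4% in WT and 5.16%, 9.48% and 6.81% in MSTN-KO. *Rfc4* shares 12.7% of its exon bases with *Eif4a2* on the opposite strand, and *Cdc45* shares 5.96% with *Ufd1*. Without knowledge of the strand, reads on these bases cannot be told apart. *Pcna*, the sliding clamp, had 118, 136 and 175 FPKM in WT and 141, 151 and 154 FPKM in MSTN-KO, so that the MSTN-KO values lay inside the WT range (log2 fold change 0.07, 95% interval -0.24 to 0.39, limma adjusted p = 0.768).

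*Lig1*, the ligase that seals Okazaki fragments, rose from 24.2, 24.8 and 26.0 FPKM in WT to 33.1, 32.2 and 39.7 FPKM in MSTN-KO. The groups did not overlap, and the log2 fold change was 0.46 (SE 0.13, adjusted p = 0.0256 by limma). The call was lost without WT replicate 1 (0.0593), WT replicate 2 (0.104), MSTN-KO replicate 1 (0.0652) or MSTN-KO replicate 3 (0.0711, limma adjusted p in each case). In that order, the log2 fold change was 0.44, 0.46, 0.50 and 0.37. *Fen1*, which trims the same fragments, was at -0.02. The 3 RPA genes lay from 0.16 (*Rpa2*) to 0.32 (*Rpa3*), and none was called. *Lig1* shares 5.79% of its exon bases with *Zswim9* on the opposite strand, which was not called.

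The genes that supply deoxynucleotides pointed in different directions. *Dut*, whose product removes dUTP, had 92.1, 108 and 106 FPKM in WT and 132, 121 and 170 FPKM in MSTN-KO. It rose by 0.45 on the log2 scale (SE 0.14, adjusted p = 0.0467 by limma), close to the threshold. The call was lost in 11 of 17 alternatives. Among these were the analyses without WT replicate 1, 2 or 3 (limma adjusted p 0.138, 0.0967 and 0.0754) and without MSTN-KO replicate 1 or 3 (0.0895 and 0.143). The log2 fold change of *Dut* was 0.38, 0.49 and 0.48 without these WT libraries, and 0.49 and 0.31 without these MSTN-KO libraries. *Rrm2*, the subunit of ribonucleotide reductase made in S phase, had 194, 192 and 243 FPKM in WT and 150, 152 and 175 FPKM in MSTN-KO. Its groups did not overlap, yet it missed the threshold (log2 fold change -0.39, SE 0.13, adjusted p = 0.0582 by limma), and it passed in 6 of 17 alternatives. *Rrm1*, the partner subunit, was similar at -0.40 (limma adjusted p = 0.073). *Tk1* and *Tyms*, which make thymidine nucleotides, were at 0.20 and -0.06. *Pcna* and *Tyms* have annotated processed pseudogenes, so their values are uncertain where the counting split reads between copies.

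**Figure D2:**
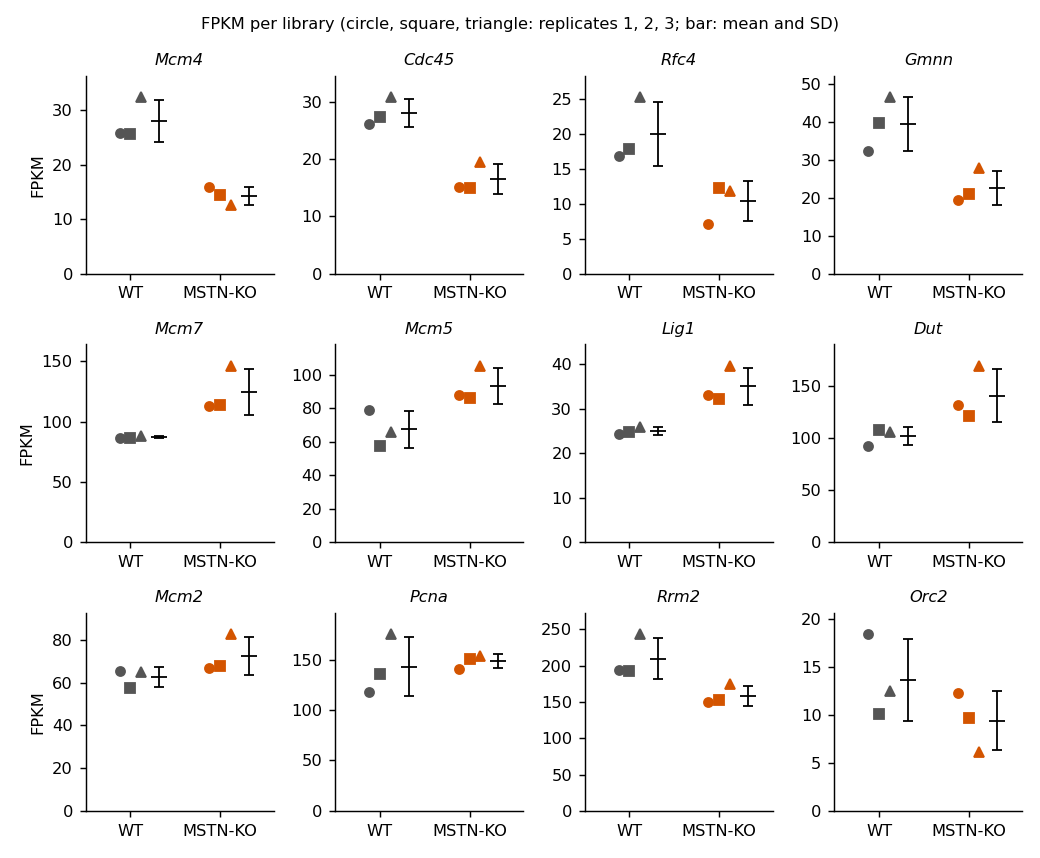
FPKM in each of the 6 libraries for 12 replication genes, with the mean and SD of each group (n = 3) beside the points and each axis starting at 0. The top row holds the 4 genes that fell and the middle row the 4 that rose, while *Mcm2*, *Pcna*, *Rrm2* and *Orc2* in the bottom row were not called.

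The members varied together between libraries of 1 group. WT replicate 3 was the highest WT library for 36 of 46 members, and MSTN-KO replicate 3 the highest of its group for 28. How often these libraries were the highest among all tested genes was not counted. Relative to the WT mean, the median over the members was -0.11, -0.05 and 0.17 in WT replicates 1 to 3 and 0.03, 0.02 and 0.15 in MSTN-KO replicates 1 to 3. Over all tested genes the same medians were 0.04, -0.02 and -0.01 in WT and 0.02, 0.01 and 0.006 in MSTN-KO. A list of 14 tested markers of G2 and mitosis gave -0.12, -0.06 and 0.19 in WT and -0.05, 0.08 and 0.02 in MSTN-KO. The median coefficient of variation of the members was 14.1% in WT and 13.5% in MSTN-KO. WT replicate 3 also stood apart in a list of 18 tested genes of myogenic differentiation, with a median of -1.12 against 0.51 and 0.58 in the other WT libraries. The part of this library in the results was not tested beyond leaving it out. Without it the median of the members was 0.16, with 2 called higher and 4 lower. Of all 10837 tested genes, 600 were then called higher and 806 lower, against 952 and 971 with all 6 libraries. Without WT replicate 1, which was the lowest WT library for 28 members, the median was -0.047. The count of members called higher was 2 without WT replicate 1, 0 without WT replicate 2, 1 without MSTN-KO replicate 1 and 0 without MSTN-KO replicate 3. In the same order, 770, 419, 488 and 588 of all tested genes were called higher, so fewer genes were called in general. The count of members called lower was 4 or 5 in each of these, beside 650, 611, 677 and 724 of all tested genes.

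Of the 4 genes that fell, 3 start within 7.49 Mb of each other on chromosome 16 and their neighbours were lower too. *Mcm4* (GRCm38 chr16:15623897-15637400), *Cdc45* (chr16:18780447-18811987) and *Rfc4* (chr16:23113943-23127737) fall in an unbroken run of 81 tested genes that were all below 0, from *Snai2* to *Lpp*, 10.29 Mb in length. This run was found by looking at the values around the members, so that it is a description with no test. In it 65 genes (80.2%) were called lower, against 8.96% of all tested genes, 74 had no overlap between the groups, against 18.1%, and none was called higher. The median log2 fold change was -0.69 with quartiles of -0.87 and -0.55, and the median ratio of mean FPKM, MSTN-KO over WT, was 0.593. Without the 3 members, 62 of 78 genes were called lower and the median was -0.68. *Mcm4* (-0.92) and *Rfc4* (-0.89) were just past the lower quartile of these genes, and *Cdc45* (-0.74) was near their median. The partners on the opposite strand were lower as well, *Ufd1* at -0.74 and *Eif4a2* at -1.005.

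The genes just outside the run are above 0 by its definition. *Snai2*, the first gene inside, was at -0.12 and was not called (limma adjusted p = 0.664), and *Lpp*, the last, was at -0.67 (adjusted p = 0.022). *Abcc1*, the last tested gene before it, was at 0.44 (limma adjusted p = 0.0347), and *Tprg*, the first after it, at 0.88 (adjusted p = 0.00347). The 20 tested genes before had a median of 0.09 and the 20 after a median of 0.004. Over the other 259 tested genes of chromosome 16 the median was 0.04, with 21 called lower (8.11%) and 29 higher. All 3 MSTN-KO libraries had the shift, with medians over the 81 genes of -0.69, -0.73 and -0.61 relative to the WT mean. Genomic DNA was not analysed here, and the cause was not tested.

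**Figure D3:**
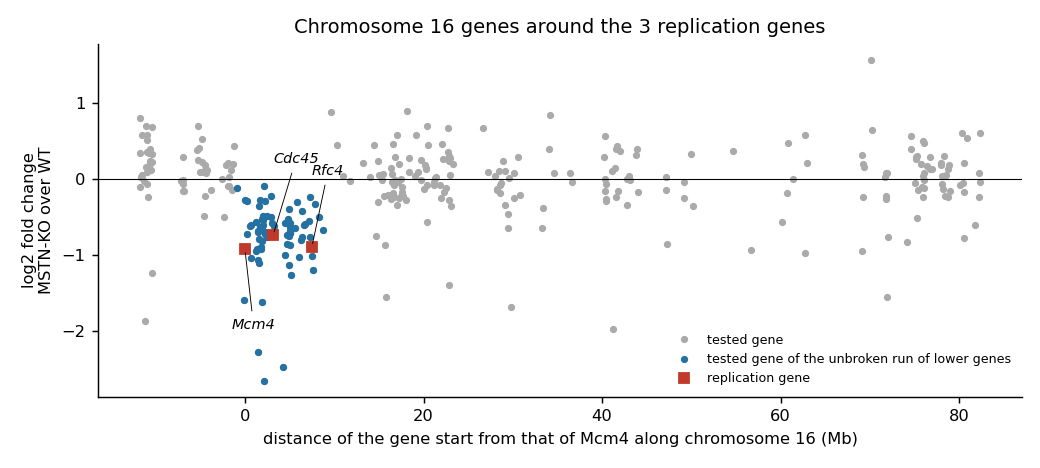
The log2 fold change, MSTN-KO over WT, of each tested gene of chromosome 16 against the distance of its start from that of *Mcm4* in Mb. The blue points are the 81 genes of the unbroken run below 0, and the red squares mark *Mcm4*, *Cdc45* and *Rfc4* within it.

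*Gmnn* lies outside that stretch, on chromosome 13 (GRCm38 chr13:24751845-24761923). The 410 tested genes of chromosome 13 had a median log2 fold change of -0.34, with 120 called lower and 18 higher. Over all tested genes, 8.96% were called lower and 8.78% higher, so lower calls were more frequent on this chromosome. The 35 tested genes within 2 Mb of *Gmnn* had a median of -0.15, with 20 below 0, 10 called lower and 4 called higher. *Gmnn* at -0.77 was well below their median, but lower calls were frequent among these neighbours too. *Mcm3*, *Mcm6*, *Orc2* and *Prim2* lie on chromosome 1, where the median of 627 tested genes was -0.25 and 110 were called lower. Of these members *Mcm3*, *Mcm6* and *Prim2* stayed between -0.08 and 0.002, above the chromosome's median, and *Orc2* was below it.

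Across the 46 members, the log2 fold change followed that of the tested genes within 2 Mb, with a Spearman rho of 0.58. Without the 3 genes of the chromosome 16 stretch, rho was 0.488 over 43 members. The genes that rose sat among neighbours with medians of 0.09 (*Mcm7*, 53 genes), 0.14 (*Mcm5*, 3 genes), 0.19 (*Lig1*, 12 genes) and 0.13 (*Dut*, 22 genes). The GC content of the longest annotated transcript gave a rho of 0.528, and the length of all exons together one of 0.003. Members are not replicates, and all points come from the same 6 libraries, so these are descriptions. When each library was corrected for exon length and GC, 5 members were called higher and 5 lower. Of all 10837 tested genes, 1181 were then called higher and 1302 lower, so more genes were called in general. The rise of *Mcm7* was 0.45 and the fall of *Mcm4* -0.89.

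**Figure D4:**
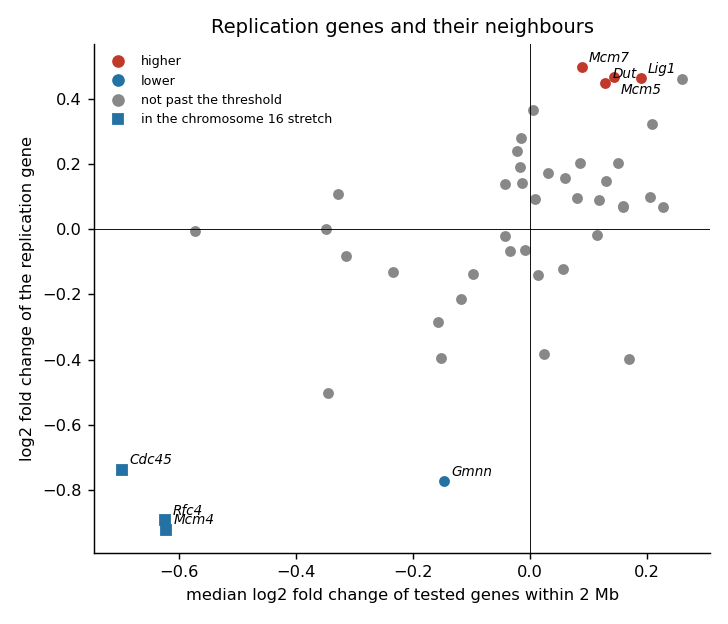
The log2 fold change of each of the 46 replication genes against the median log2 fold change of the other tested genes within 2 Mb of it. *Mcm4*, *Cdc45* and *Rfc4*, drawn as squares, sit at the lower left with neighbours at -0.62 to -0.70. *Gmnn* is well below the median of its neighbours, and the 4 genes that rose have neighbours with medians a little above 0.

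Few other genes of the pathway were called. Of 40 accessory replication genes 38 were tested, 3 were called higher and 1 lower, against 8.78% and 8.96% of all genes, and their median was 0.09. Under scaling to a sum of 1000000 FPKM, 1 was called higher and 7 lower. Of all 10837 tested genes, 350 were then called higher and 2367 lower. *Rnaseh2c*, a subunit of the enzyme that removes ribonucleotides from DNA, rose by 0.67 (52.5 ± 3.13 to 84.0 ± 3.75 FPKM, SD, n = 3, limma adjusted p = 0.0021). *Dctd*, which deaminates dCMP, rose by 0.50 (adjusted p = 0.036), and *Donson*, a factor for firing and fork stability, by 0.47 (adjusted p = 0.0242). *Rnaseh2c* shares 24.8% of its exon bases with *Kat5* on the opposite strand, and *Donson*, at 497 ± 12.2 FPKM in WT, shares 9.17% with *Atp5o* on its own strand, so both values are uncertain. *Rrm2b*, the reductase subunit used outside S phase, fell by 0.71 (2.83 ± 0.504 to 1.38 ± 0.558 FPKM, limma adjusted p = 0.0274). *Donson* also lies on chromosome 16, outside the stretch of lower genes.

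Among 24 tested regulators of the step from G1 to S, 1 was called higher (4.17%, against 8.78% of all genes) and 6 were called lower (25%, against 8.96%), and the median was -0.16. *E2f4*, an E2F factor known mainly as a repressor, rose by 0.41 (limma adjusted p = 0.0417). The cyclin-dependent kinase inhibitors *Cdkn1c* (-0.85, adjusted p = 0.00431) and *Cdkn1a* (-0.77, adjusted p = 0.00364) fell, as did the pocket protein gene *Rb1* (-0.85, adjusted p = 0.00453). *E2f2* (-0.55) and *E2f6* (-0.55) fell as well, and the sixth was *Ccnd3* (-0.54), the cyclin D known to persist in differentiating myoblasts. *E2f1* was not called, at 29.0 ± 4.67 FPKM in WT and 31.8 ± 4.799 in MSTN-KO (log2 fold change 0.13). Of 14 tested markers of G2 and mitosis, *Ccnb1* on chromosome 13 fell (-0.52, limma adjusted p = 0.0166) and none rose. That is 7.14% called lower, against 8.96% of all genes. *Mki67*, the common marker of proliferation, had 8.93 ± 0.420 FPKM in WT and 8.79 ± 3.04 in MSTN-KO (log2 fold change -0.07).

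The myogenic list gave a contrast within the same libraries. All 18 tested genes of myogenic differentiation were called lower, against 8.96% of all tested genes, with a median log2 fold change of -2.71. *Myog*, a regulator that starts differentiation, went from 123 ± 67.3 to 9.72 ± 2.18 FPKM (-3.36, limma adjusted p = 3.98e-05). The list was put together with results of these data known, so its direction is not independent evidence. Its median was -3.01, -2.71 and -2.61 in the MSTN-KO libraries relative to the WT mean, where that of the replication genes was 0.03, 0.02 and 0.15.

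**Figure D5:**
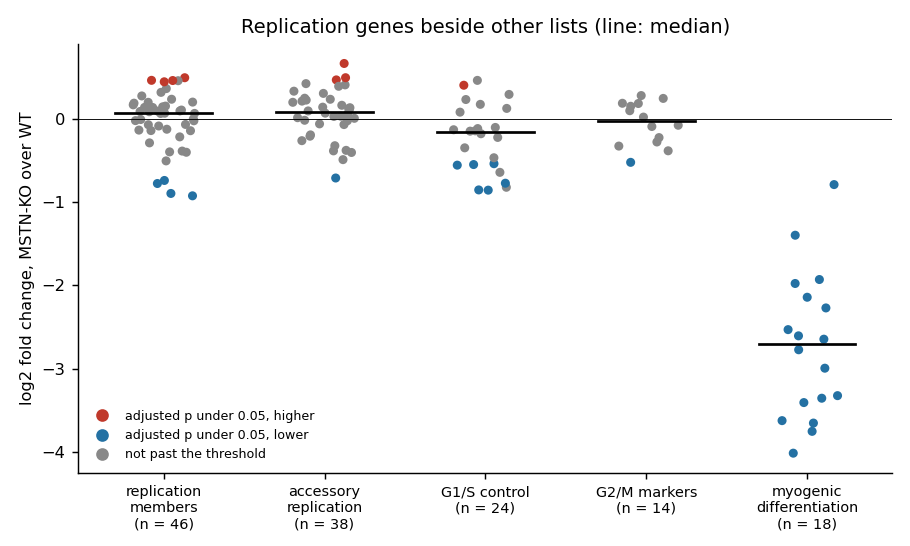
The log2 fold change, MSTN-KO over WT, of each tested gene of 5 lists, with a line at the median of each list. The 46 replication genes and 38 accessory genes are spread around 0, the 24 regulators of G1 and S and the 14 markers of G2 and mitosis lie between -0.85 and 0.47, and the 18 myogenic genes are all at -0.79 or below.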

How the data were processed

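The data were RNA-seq of C2C12 cells, 3 libraries each of WT and MSTN-KO by the genotype field. The deposited values are FPKM that the authors computed for every gene, unpooled, with a file for each library. The submitters' processing notes list Bowtie 0.12.2 and mm8 without a role, and the annotation, strand use and any filter on genes are not given in the sources used here. Because FPKM is relative to the size of the library, genes that take up more of it lower all others. The 6 files hold no counts, so counting error could not be given. The relative depth was estimated from genes under 0.1 FPKM.

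The replication genes and the accessory, context and marker lists were chosen with earlier results of these data known. Symbols, positions, exon length and GC content came from GENCODE M21 (GRCm38), which matched 14454 of 14548 gene identifiers to a symbol and 14445 to a length, and no coordinate of the authors' build was used. Genes reaching 1 FPKM in any library were fitted as log2(FPKM + 1) with limma 3.58.1 in R 4.3.3, with the group as the only term and eBayes with a trend. For low genes this scale understates the change. A gene was called at a Benjamini-Hochberg adjusted p under 0.05 over all 10837 tested genes, and the steps were tested on simulated data. All members could be named, with full values for those called and for *Cdc45*, *Mcm2*, *Pcna* and *Rrm2*, and from the other lists at most the 5 largest called changes and a few genes fixed by name. *Pold1*, *Pold2*, *Orc2*, *Rrm1*, *Pola1* and the genes around the members were picked for fuller values after these had been seen. Neighbours were the tested genes within 2 Mb, and promoters came from RefSeq (GRCm38.p6). The tables and plots were made in Python 3.11.15 (pandas 2.3.3, numpy 2.4.6, matplotlib 3.10.9, scipy 1.17.1).

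In 17 alternatives, 1 choice at a time was changed to a pseudocount of 0.1, no filter, a filter on the mean, no trend, quantile normalization, scaling to the 75th percentile, to a sum of 1000000 or by the median of ratios, a smooth correction for length and GC content (mgcv 1.9.3), a replicate block alone or together with it, or the removal of 1 library.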

Additional observations from a re-analysis of the deposited data

How the results depend on the processing

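*Mcm4*, *Gmnn* and *Cdc45* were called lower in all 17 alternatives and *Rfc4* in 16, with an adjusted p of 0.0521 (limma) without the filter on low values. *Mcm7* was called higher in 13, *Lig1* in 12, *Mcm5* in 9 and *Dut* in 6. With 4 members called higher in the reported analysis, the count was 2 without the filter, 2 without the trend, 2 under quantile normalization and 0 when each library was scaled to a sum of 1000000, where 7 members in place of 4 were called lower. The calls over all genes under that scaling were 350 higher and 2367 lower, against 952 and 971. Genes called higher numbered 720 of 14548 without the filter, 836 without the trend and 971 under quantile normalization. Leaving out 1 library gave 0 to 5 members called higher and 4 to 5 lower, and medians of the members from -0.047 to 0.16. Over all tested genes, leaving out 1 library gave 419 to 1175 called higher and 611 to 1233 lower. Scaling to a sum moved the median of the members from 0.07 to -0.21, *Mcm2* to -0.078 and *Pcna* to -0.21, and *Pcna* was also below 0 under quantile normalization (-0.044) and without WT replicate 1 (-0.057), and ranged up to 0.23 without another library. *Pcna* and *Mcm2* were called in none of the 17. Of the accessory genes, 3 were called higher, but 1 under the sum scaling and 5 with the length and GC correction, and 1 was called lower, but 7 under the sum scaling and 0 without the filter, under quantile normalization and with the length and GC correction. Leaving out 1 library gave 1 to 4 and 0 to 2. With the length and GC correction, 1181 of all tested genes were called higher and 1302 lower. The median of the chromosome 16 stretch was -0.77 with a pseudocount of 0.1, -0.63 under quantile normalization and -0.96 under the sum scaling. Between 51 and 73 of its 81 genes were called lower in all alternatives, which were added for this stretch after the values had been seen. Where a value moved, the cause was not tested.

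Libraries with the same replicate number did not deviate together across genes (correlations of -0.0153, -0.128 and -0.142). Among the members, replicate 3 was the highest library of its group for 36 in WT and for 28 in MSTN-KO. Whether libraries with the same number shared a batch or a culture was not tested. With the replicate block, 4 members were again called higher and 4 lower, and 939 and 1001 genes overall. The block with the length and GC correction gave 6 and 5 members, and 1006 and 1103 genes overall. Across 10784 genes the fold change had a Spearman rho of -0.225 with length and 0.298 with GC content, and -0.0472 and 0.0641 after the correction. The FPKM values limit what can be said of low genes, and the precision rests on 3 libraries per group of 1 edited line.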

Other observations

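The stretch of chromosome 16 that holds *Mcm4*, *Cdc45* and *Rfc4* also holds other genes with known roles in chromatin, DNA repair and protein turnover, chosen here after their values had been seen. *Hira*, a histone chaperone, had a log2 fold change of -0.62 (15.9 ± 0.479 FPKM in WT and 9.99 ± 0.534 in MSTN-KO, limma adjusted p = 0.00593). *Prkdc*, the catalytic subunit of the DNA-dependent protein kinase and a direct neighbour of *Mcm4*, was low throughout, at 1.25 ± 0.160 FPKM in WT and 0.865 ± 0.286 in MSTN-KO (SD, n = 3), and was not called (log2 fold change -0.28, limma adjusted p = 0.296). *Klhl22*, an adaptor of a ubiquitin ligase, had the lowest log2 fold change of the 81 genes at -2.65, from 15.0 ± 5.11 FPKM in WT to 1.47 ± 0.179 in MSTN-KO (limma adjusted p = 1.72e-06). Its fall is far below the quartiles of the stretch, -0.87 and -0.55.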
